A study of Mus musculus with 4 samples.

Results

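The regions described here are the megabases of the mouse genome in which reads from the histone mark H3K4me3 most exceeded those of a control library. Each autosome was cut into 1 Mb tiles from its first base. A tile was kept where the control held at least 500 reads, and it was taken as rich in H3K4me3 where the H3K4me3 count, scaled to the control's autosomal total, was at least 1.5 times the control count. Of 2191 autosomal tiles with enough control reads, 186 met this rule (8.49%), and the members are the 46450 windows of 4 kb inside them, of 657675 windows on chromosomes 1 to 19, X and Y. The H3K4me3 and control reads chose these megabases, so every H3K4me3 value over the control given for them is a description and not a finding. The other 2005 tiles are called the other megabases.

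The data come from MDER 10T cells, a line of mouse fibroblasts that carries an estrogen-inducible form of the muscle regulator MyoD1 according to the series title. Chromatin immunoprecipitation with sequencing (ChIP-seq) was done with Abcam antibodies against H3K4me3, H3K27me3 and H3K9me3, and a whole-cell extract (WCE) library, made from sonicated chromatin without immunoprecipitation, is the control. All 4 libraries come from the same line in phenol-red-free DMEM/F12 medium with calf serum, and no estrogen treatment, passage or clone is named. There is 1 library per group and thus no replicate error. Each interval below is a 95% exact (Clopper-Pearson) interval, unless another kind is named, and covers counting error only. Reads amplified by PCR and not tagged by molecule can be copies of each other, which the intervals do not allow for. The autosomes held 3086567 H3K4me3, 2933567 H3K27me3, 2101444 H3K9me3 and 2977697 WCE reads at distinct signed positions. Positions are on the mm8 build, counted from 1.

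H3K4me3 is placed by SET1 and MLL complexes on nucleosomes beside active or poised promoters, above all at CpG islands. H3K27me3 is placed by the Polycomb complex PRC2 and covers silenced developmental genes, often as broad domains, while H3K9me3 marks heterochromatin and many repeats. In mammals, genes are unevenly spread along chromosomes, so promoters of housekeeping genes tend to lie close together in some regions and far apart in others. Whether these megabases are dense in genes was not checked, since no gene positions of the mm8 build were used here, and regions are therefore named by position.

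H3K4me3-rich megabases were found on every autosome but not evenly. Chromosome 11 held 27 (23.9% of its tiles), chromosome 7 held 22 (19.5%), chromosome 19 held 11 (18.97%) and chromosome 17 held 13 (15.1%). Chromosome 18 held 2 (2.30%), chromosome 1 held 5 (3.13%) and chromosome 13 held 4 (3.85%). Neighbouring tiles often qualified together, with 109 of the 186 (58.6%) in runs of at least 2 adjoining tiles. The longest run covered 8 Mb of chromosome 19 (3000001 to 11000000), with 43453 H3K4me3, 22536 H3K27me3, 13991 H3K9me3 and 20226 WCE reads. Its depth-scaled ratios to WCE were 2.07 for H3K4me3 (2.04 to 2.11), 1.13 for H3K27me3 (1.11 to 1.15) and 0.980 for H3K9me3 (0.959 to 1.002). Runs of 4 Mb lay on chromosome 17 from 32000001 to 36000000 (H3K4me3 ratio 2.23) and from 23000001 to 27000000 (1.88), on chromosome 8 from 72000001 to 76000000 (2.05) and on chromosome 7 from 27000001 to 31000000 (1.799). The 188 tiles directly next to a member had a median H3K4me3 ratio of 1.10, between the 1.71 of the members and the 0.782 of the 1817 tiles farther away, and their median H3K27me3 ratio was 1.18, against 1.16 in the members and 0.859 farther away.

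The members' H3K4me3 ratios ran from 1.501 to 2.85 with a median of 1.71, and 52 were at 2 or above. Chromosome 19 from 5000001 to 6000000 had the highest, with 11381 H3K4me3, 3505 H3K27me3, 2575 H3K9me3 and 3850 WCE reads (H3K4me3 ratio 2.85, 2.75 to 2.96). It was followed by chromosome 15 from 76000001 (7577 H3K4me3 and 2770 WCE reads, 2.64), chromosome 10 from 79000001 (9784 and 3584, 2.63), chromosome 8 from 87000001 (9688 and 3560, 2.63) and chromosome 19 from 8000001 (3235 and 1212, 2.58). The next members were chromosome 10 from 127000001 (2.501), chromosome 11 from 69000001 (2.48), chromosome 4 from 154000001 (2.44), chromosome 10 from 80000001 (2.43) and chromosome 17 from 33000001 (2.39). In these 10 megabases the H3K27me3 ratio lay between 0.924 and 1.34 and the H3K9me3 ratio between 0.885 and 1.12, so the order by H3K4me3 was not the order of the other marks. At the edge of the rule, chromosome 9 from 88000001 (1019 H3K4me3 and 655 WCE reads), chromosome 6 from 113000001 (3390 and 2179) and chromosome 6 from 52000001 (3022 and 1942) were just inside at 1.501. Chromosome 2 from 155000001 (3236 and 2084), chromosome 8 from 114000001 (3875 and 2497) and chromosome 4 from 128000001 (2633 and 1697) were just outside at 1.498, 1.497 and 1.497.

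**Figure D1:**
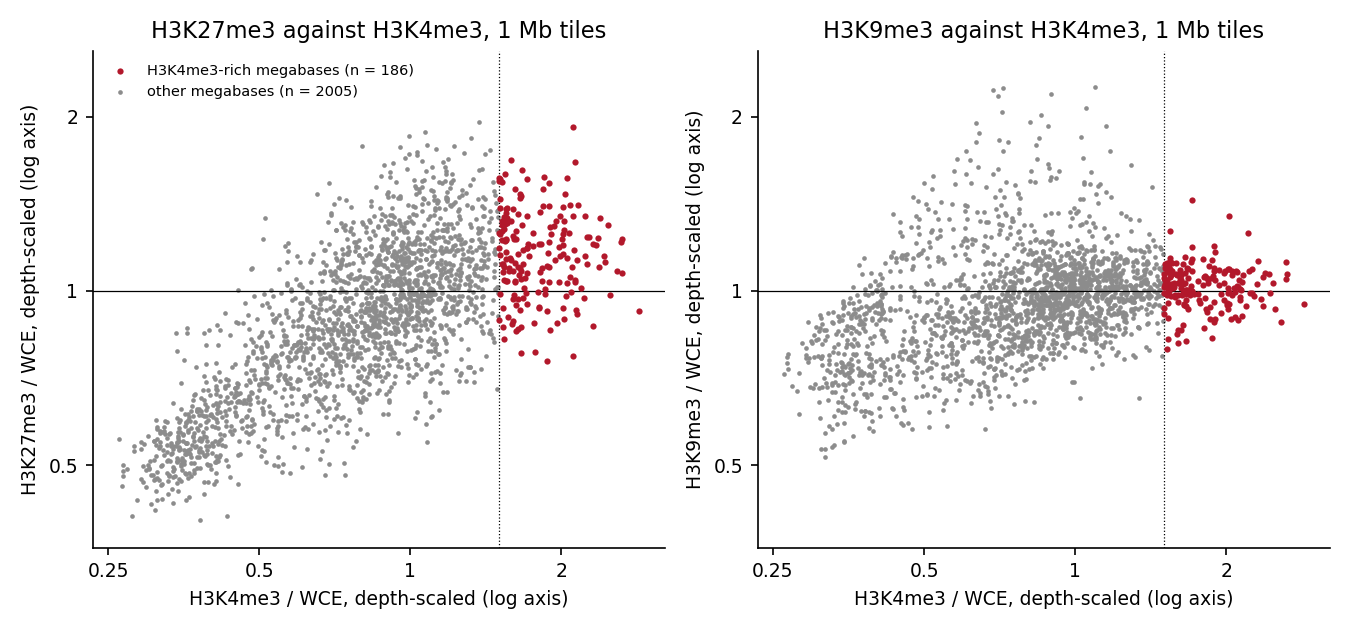
Depth-scaled ratio to WCE of H3K27me3 (left) and H3K9me3 (right) against that of H3K4me3 for each 1 Mb tile, on log axes. Red points are the 186 H3K4me3-rich megabases and grey points the 2005 others. The dotted line is the rule at 1.5. H3K27me3 in the red points runs from 0.757 to 1.92, and H3K9me3 from 0.794 to 1.44.

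H3K4me3 in these megabases was made of many short stretches placed close together. A window was called where a one-sided exact binomial test against WCE gave a Benjamini-Hochberg adjusted p under 0.05 over all windows and a ratio of at least 2, and adjoining called windows were joined into stretches. Of 44066 tested windows in the members, 4414 were called, where 2.33% of all tested windows and 1.83% of those in the other megabases were. These windows held 66.1% of the members' H3K4me3 reads and 19.04% of their WCE reads. The rule used this contrast, so the share called carries no further meaning. The number of called windows ran from 6 to 59 per megabase with a median of 22, against a median of 3 in the other megabases. WCE reads averaged 8.06 per window in the members and 5.04 elsewhere, so the test had more reads per window in the members.

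The median distance between the centres of neighbouring stretches in a member was 30 kb (order-statistic interval 28 to 32 kb, 3104 pairs), against 72 kb (70 to 76 kb, 5452 pairs) in the other megabases and 54 kb (52 to 56 kb) in the 229 tiles with a ratio from 1.2 to under 1.5. Distances of up to 20 kb made up 34.2% of pairs in the members and 13.8% elsewhere, and distances over 200 kb were seen in 61 pairs and 919 pairs. Pairs were counted only within the same megabase, which cuts long distances and leaves out tiles with a single stretch or none. The 3290 stretches of the members gave 3104 pairs, whereas the 7035 elsewhere gave 5452, and 422 of the others had no called window. The 72 kb therefore understates the spacing in the others more than the 30 kb does in the members. Measured between the densest 500 bp of each stretch, the medians were 30.5 kb and 72.2 kb. Within single members the median distance ran from 14 to 116 kb. The megabase with most called windows, chromosome 10 from 79000001, held 36 stretches at a median of 22 kb, and the adjoining one from 80000001 held 37 at 26 kb. Chromosome 8 from 73000001 held 32 stretches at 18 kb, from 8677 H3K4me3 and 3624 WCE reads. Among the members with fewest called windows, chromosome 7 from 5000001 held 5 stretches at 48 kb, from 810 H3K4me3 and 510 WCE reads, and chromosome 14 from 51000001 held 8 at 24 kb, from 1122 and 675.

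**Figure D2:**
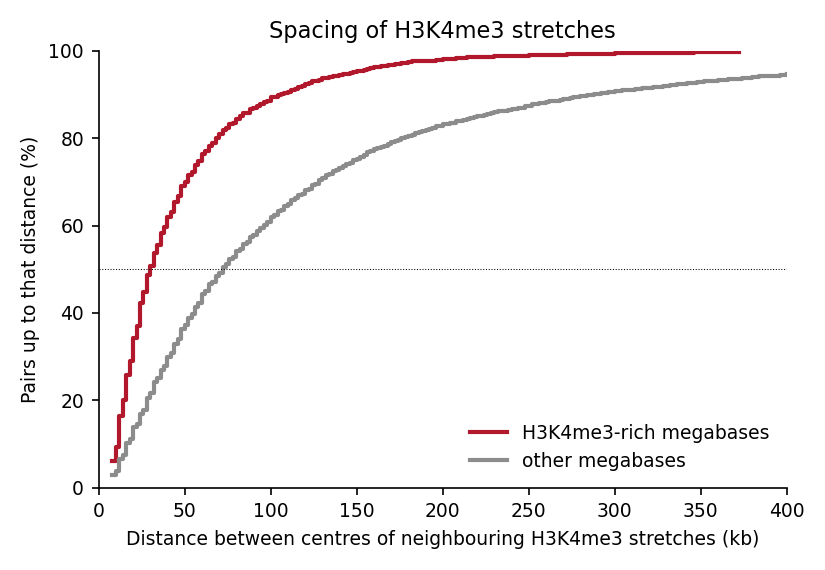
Share of neighbouring pairs of H3K4me3 stretches whose centres lie up to a given distance apart, in the H3K4me3-rich megabases (red, 3104 pairs) and the others (grey, 5452 pairs). The red curve crosses the dotted 50% line at 30 kb and the grey curve at 72 kb. Only pairs within the same megabase are counted.

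The single stretches differed less than their number did. Members held 3290 stretches, 17.7 per megabase against 3.51 elsewhere, of which 73.7% were a single window, against 79.4%, and 5.29% had at least 3 windows, against 1.83%. A stretch held a median of 119 H3K4me3, 14 H3K27me3 and 18 WCE reads in the members, and 104, 11 and 15 elsewhere. Their pooled H3K4me3 ratio was 6.40 in the members and 6.81 elsewhere. Around the densest point, mean H3K4me3 density within 250 bp was 40.5 reads per kb, scaled to 1000000 reads, in the members and 36.7 elsewhere, and at 5 to 10 kb away it was 1.38 and 0.636. Positions 5 to 10 kb away can fall in neighbouring stretches. Pairs up to 12 kb apart made up 16.5% of pairs in the members and 6.58% elsewhere. The width at 50% of the height was 0.5 kb in both, in bins of 250 bp. The centre was the densest 500 bp of the same reads. That choice by itself favours this width and raises the centre, so neither value measures peak shape. The stretches with most H3K4me3 reads were on chromosome 11 from 96128001 to 96172000 (1345 H3K4me3, 110 H3K27me3, 107 H3K9me3 and 200 WCE reads), on chromosome 8 from 87656001 to 87692000 (1283, 170, 155 and 246) and from 87852001 to 87884000 (1233, 125, 127 and 193), on chromosome 15 from 76016001 to 76036000 (1195, 130, 111 and 173), and on chromosome 6 from 52088001 to 52116000 (1145, 72, 74 and 162). In all 5 of these, H3K27me3 lay below WCE after scaling, at ratios from 0.451 to 0.763, and H3K9me3 at 0.647 to 0.932.

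H3K27me3, whose reads took no part in the rule, was higher in these megabases, and the excess lay between the H3K4me3 stretches. Over whole megabases the pooled H3K27me3 ratio was 1.19 (1.188 to 1.198) in the members and 0.984 (0.983 to 0.986) in the others. In windows called for H3K4me3 it was 0.837 (0.828 to 0.846) and 0.852 (0.845 to 0.859), whereas in windows not called for H3K4me3 it was 1.28 (1.27 to 1.28) and 0.991 (0.989 to 0.993). WCE also entered the rule, so the ratio of H3K27me3 to H3K9me3, which uses neither of the libraries that chose the tiles, was taken as well. Between stretches it was 1.208 (1.201 to 1.214) in the members and 0.988 (0.986 to 0.990) in the others. Per megabase, H3K27me3 between stretches was above WCE in 154 of 186 members (82.8%) and in 704 of 2005 others (35.1%). No test over samples is possible with 1 library per mark.

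The excess was smaller against megabases that resemble the members. Tiles with an H3K4me3 ratio from 1.2 to under 1.5 had an H3K27me3 ratio between stretches of 1.202 (1.197 to 1.208). The 446 other megabases whose WCE counts fell between 1610.5 and 2484.5 reads, the quartiles of the members, a set chosen after the data were seen, had 1.18 (1.179 to 1.186), and an H3K27me3 to H3K9me3 ratio of 1.11 (1.108 to 1.115). Over whole tiles the pooled H3K27me3 ratio was 1.17 (1.161 to 1.171) in the first of these sets and 1.16 (1.160 to 1.167) in the second, against 1.19 in the members. Per megabase, H3K27me3 between stretches was above WCE in 165 of the 229 tiles of the first set (72.1%) and in 334 of the 446 of the second (74.9%). The other megabases of similar WCE count thus stood above all others together, which were at 0.991 between stretches. The part of WCE density in the result was not tested further. With windows called for H3K27me3 left out, the ratio between stretches was 1.18 (1.170 to 1.182) in the members and 0.962 (0.960 to 0.964) in the others, so it was not limited to called windows.

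H3K27me3 climbed with distance from H3K4me3. In the members its pooled ratio was 0.837 in called H3K4me3 windows, 1.04 (1.03 to 1.05) in windows starting 4 kb away, 1.13 (1.12 to 1.15) at 8 kb, 1.19 (1.17 to 1.21) at 12 kb, 1.26 (1.25 to 1.28) at 16 to 20 kb, 1.34 (1.33 to 1.36) at 24 to 36 kb, 1.48 (1.466 to 1.4998) at 40 to 76 kb and 1.71 (1.68 to 1.74) at 80 to 196 kb. In the other megabases it was 0.928 at 4 kb, 0.997 at 8 kb, 1.07 at 24 to 36 kb, 1.13 at 40 to 76 kb and 1.12 at 80 to 196 kb. The members therefore stood at 1.48 and 1.71, against 1.13 and 1.12, at the 2 distance classes from 40 to 196 kb. In the other megabases of similar WCE count those classes were at 1.25 and 1.28. Tiles with an H3K4me3 ratio from 1.2 to under 1.5 were at 1.32 (1.31 to 1.34) and 1.36 (1.34 to 1.37). The H3K27me3 to H3K9me3 ratio in the members went the same way, with 1.03 at 4 kb, 1.25 at 24 to 36 kb, 1.38 at 40 to 76 kb and 1.55 (1.52 to 1.58) at 80 to 196 kb, but 0.843 (0.810 to 0.876) beyond 200 kb.

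Beyond 200 kb, where 2529 windows in 52 members held 2.13 WCE reads each, H3K27me3 was at 1.03 (0.993 to 1.07) and H3K9me3 at 1.22 (1.18 to 1.27). WCE density fell along the whole series, from 8.81 reads per window at 4 kb to 5.04 at 80 to 196 kb. The climb was seen in most members. Windows 40 to 196 kb away had a higher H3K27me3 ratio than windows 4 to 12 kb away in 153 of 184 members with at least 50 WCE reads in both classes (83.2%), and in 952 of 1272 other megabases (74.8%). H3K9me3 over WCE was also higher far away, in 126 of 184 members (68.5%) and 839 of 1272 others (66.0%). H3K27me3 over H3K9me3 was higher far away in 147 of 184 members (79.9%) and 831 of 1272 others (65.3%). With the 10 members highest for H3K27me3 left out, a choice also made after the data were seen, the ratio was 1.09 at 4 to 12 kb and 1.63 (1.60 to 1.66) at 80 to 196 kb, and without called H3K27me3 windows it was 1.55 (1.53 to 1.58) at 80 to 196 kb.

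**Figure D3:**
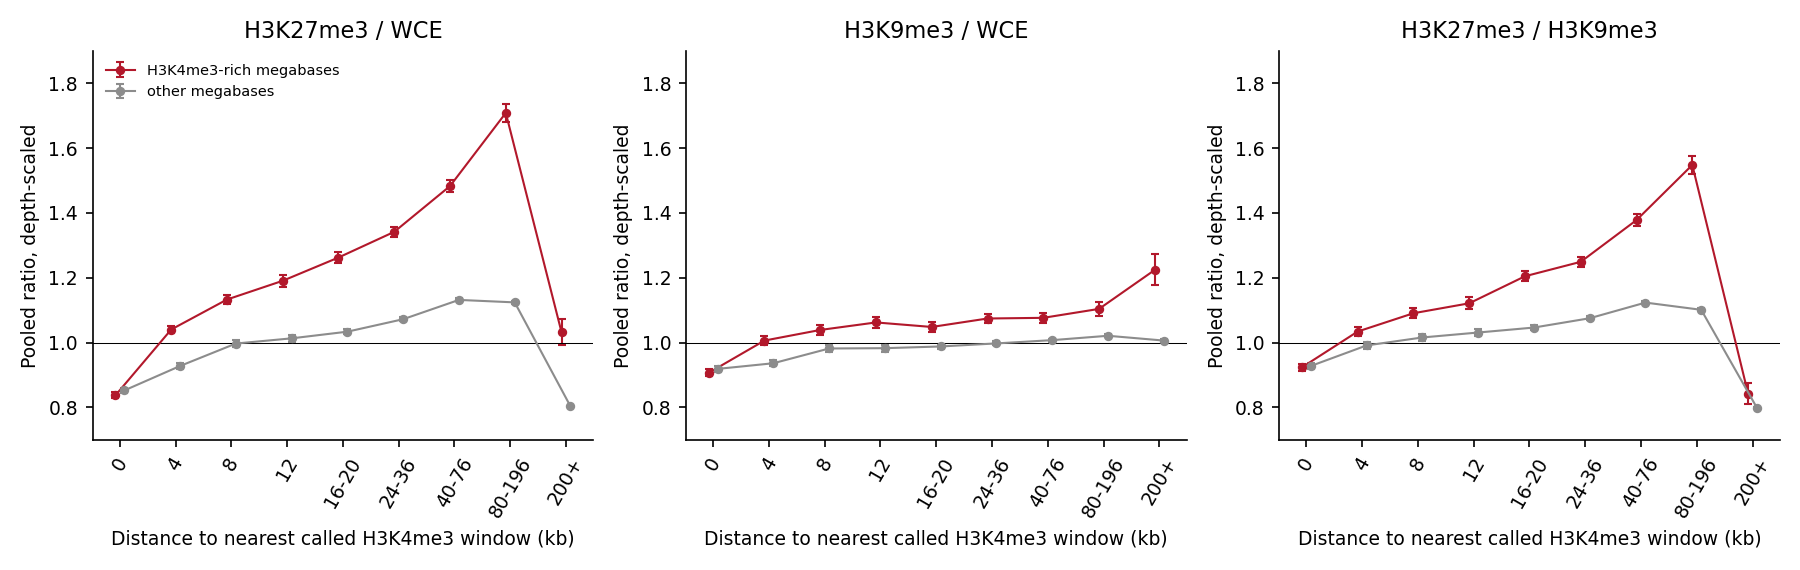
Pooled depth-scaled ratios by distance (start to start, in kb) to the nearest called H3K4me3 window, in the H3K4me3-rich megabases (red) and the others (grey), for H3K27me3 over WCE, H3K9me3 over WCE and H3K27me3 over H3K9me3. Bars are 95% exact intervals for counting error. H3K27me3 over WCE in red runs from 0.837 at 0 kb to 1.71 at 80 to 196 kb.

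Gaps between neighbouring stretches of 1 member show the same order by their length. Gaps of up to 12 kb had an H3K27me3 ratio of 0.998 (0.977 to 1.02, 954 gaps), gaps over 40 and up to 100 kb 1.24 (1.23 to 1.25, 712 gaps), and gaps over 200 kb 1.78 (1.75 to 1.80, 56 gaps). In the other megabases the same classes were at 0.909, 1.04 and 1.16. A called H3K27me3 window lay in 1.68%, 19.5% and 58.9% of these gaps in the members, and in 0.792%, 8.86% and 28.1% elsewhere, where a longer gap has more windows in which a call can fall.

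The longest gaps were unlike each other. The gap on chromosome 19 from 9204001 to 9964000 (760 kb) held 153 H3K4me3, 285 H3K27me3, 191 H3K9me3 and 326 WCE reads, and its H3K27me3 ratio was 0.887 (0.754 to 1.04). That on chromosome 1 from 173344001 to 173860000 (516 kb) held 401 H3K27me3 and 405 WCE reads (1.01, 0.873 to 1.16), and that on chromosome 11 from 58148001 to 58660000 (512 kb) held 721 and 500 (1.46, 1.30 to 1.64). The gap on chromosome 19 from 6420001 to 6904000 (484 kb) held 553 H3K4me3, 1911 H3K27me3, 684 H3K9me3 and 753 WCE reads, with 18 called H3K27me3 windows and an H3K27me3 ratio of 2.58 (2.37 to 2.81). The gap on chromosome 7 from 3308001 to 3736000 (428 kb) held 208 H3K27me3 and 173 WCE reads (1.22, 0.993 to 1.502). The fourth of these stood apart from the other 4, which held no called H3K27me3 window.

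Called H3K27me3 windows were also more frequent in the members. Of 44248 tested windows, 1082 were called (2.45%, 2.30 to 2.59%), against 0.624% of all tested windows and 0.535% in the other megabases. The share was 1.36% (1.30 to 1.43%) in the others of similar WCE count. In tiles with an H3K4me3 ratio from 1.2 to under 1.5 it was 1.68% (1.57 to 1.79%). Members held a median of 4 such windows, with none in 25 and up to 36 in 1 megabase. At 1.5 or above over the whole tile were 13 members (6.99%), against 3.01% of all autosomal tiles, but 6.55% of the tiles with a ratio from 1.2 to under 1.5 and 8.07% of the others of similar WCE count did so too. The calls formed 745 stretches, of which 74.8% were a single window, against 79.7% elsewhere, and 8.05% had at least 3 windows, against 5.82%. The median distance of an H3K27me3 stretch from the nearest called H3K4me3 window was 24 kb in the members and 56 kb elsewhere, while 10.5% and 9.94% contained a window called for H3K4me3. The rule packs called H3K4me3 windows into the members, so any window there tends to lie closer to one. Only 2529 of 46450 member windows lay 200 kb or more away, against 223703 of 500819 elsewhere. The 2 medians therefore do not show that H3K27me3 lies nearer to H3K4me3 in the members. In all, 85 member windows were called for both marks, 7.86% of those called for H3K27me3 and 1.93% of those called for H3K4me3. Over the whole genome 8.07% of H3K27me3 windows were called for both, and 8.01% in the other megabases. These shares have unlike bases. Of all tested windows, 10.02% were called for H3K4me3 in the members and 1.83% in the others. The 7.86% was thus below the members' base, and the 8.01% was above that of the others.

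Among H3K27me3 stretches without a called H3K4me3 window, the 5 longest held many more H3K27me3 reads than reads of any other library. Longer stretches that contain a called H3K4me3 window are not listed. Chromosome 15 from 102736001 to 102808000 (72 kb) held 175 H3K4me3, 1137 H3K27me3, 179 H3K9me3 and 145 WCE reads (H3K27me3 ratio 7.96, 6.69 to 9.53), and adjoins a called H3K4me3 window. Chromosome 11 from 95980001 to 96024000 (44 kb) held 62, 607, 80 and 101 (6.10, 4.93 to 7.61), chromosome 10 from 79884001 to 79912000 (28 kb) held 107, 491, 70 and 69 (7.22, 5.60 to 9.43), chromosome 19 from 45276001 to 45300000 (24 kb) held 82, 430, 101 and 66 (6.61, 5.09 to 8.71), and chromosome 7 from 45032001 to 45056000 (24 kb) held 46, 304, 66 and 42 (7.35, 5.31 to 10.4). H3K9me3 ratios in these 5 stretches ran from 1.12 to 2.23. The H3K4me3 ratios ran from 0.592 to 1.496, but the choice of stretches without called H3K4me3 windows holds them down by itself.

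Between stretches, the members spread widely in H3K27me3. Chromosome 11 from 96000001 to 97000000 was highest, with 3704 H3K27me3 and 1758 WCE reads outside called H3K4me3 windows (2.14, 2.02 to 2.26) and an H3K27me3 to H3K9me3 ratio of 1.92. It was followed by chromosome 15 from 102000001 (3322 and 1691 reads, 1.99), chromosome 15 from 78000001 (4229 and 2325, 1.85), chromosome 19 from 6000001 (3637 and 2065, 1.79) and chromosome 2 from 164000001 (3324 and 1925, 1.75). These 5 held 14 to 36 called H3K27me3 windows each. Lowest were chromosome 19 from 9000001 (688 and 901, 0.775, 0.701 to 0.857), chromosome 12 from 70000001 (1263 and 1633, 0.785) and chromosome 14 from 19000001 (1373 and 1753, 0.795), with 0, 0 and 2 called windows. The megabases from 6000001 and from 9000001 on chromosome 19 belong to the same 8 Mb run.

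The order of the members by H3K4me3 did not follow their H3K27me3 between stretches. Across the 186 members the H3K4me3 ratio and the H3K27me3 to H3K9me3 ratio between stretches had a Pearson r of 0.04 and a Spearman rho of 0.01, given as a description since tiles share their libraries. In the 62 members with fewest stretches (5 to 15) the median of that H3K27me3 to H3K9me3 ratio was 1.11, and in the 62 with most (19 to 37) it was 1.24. Their median WCE counts were 1660.5 and 2296 reads.

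**Figure D4:**
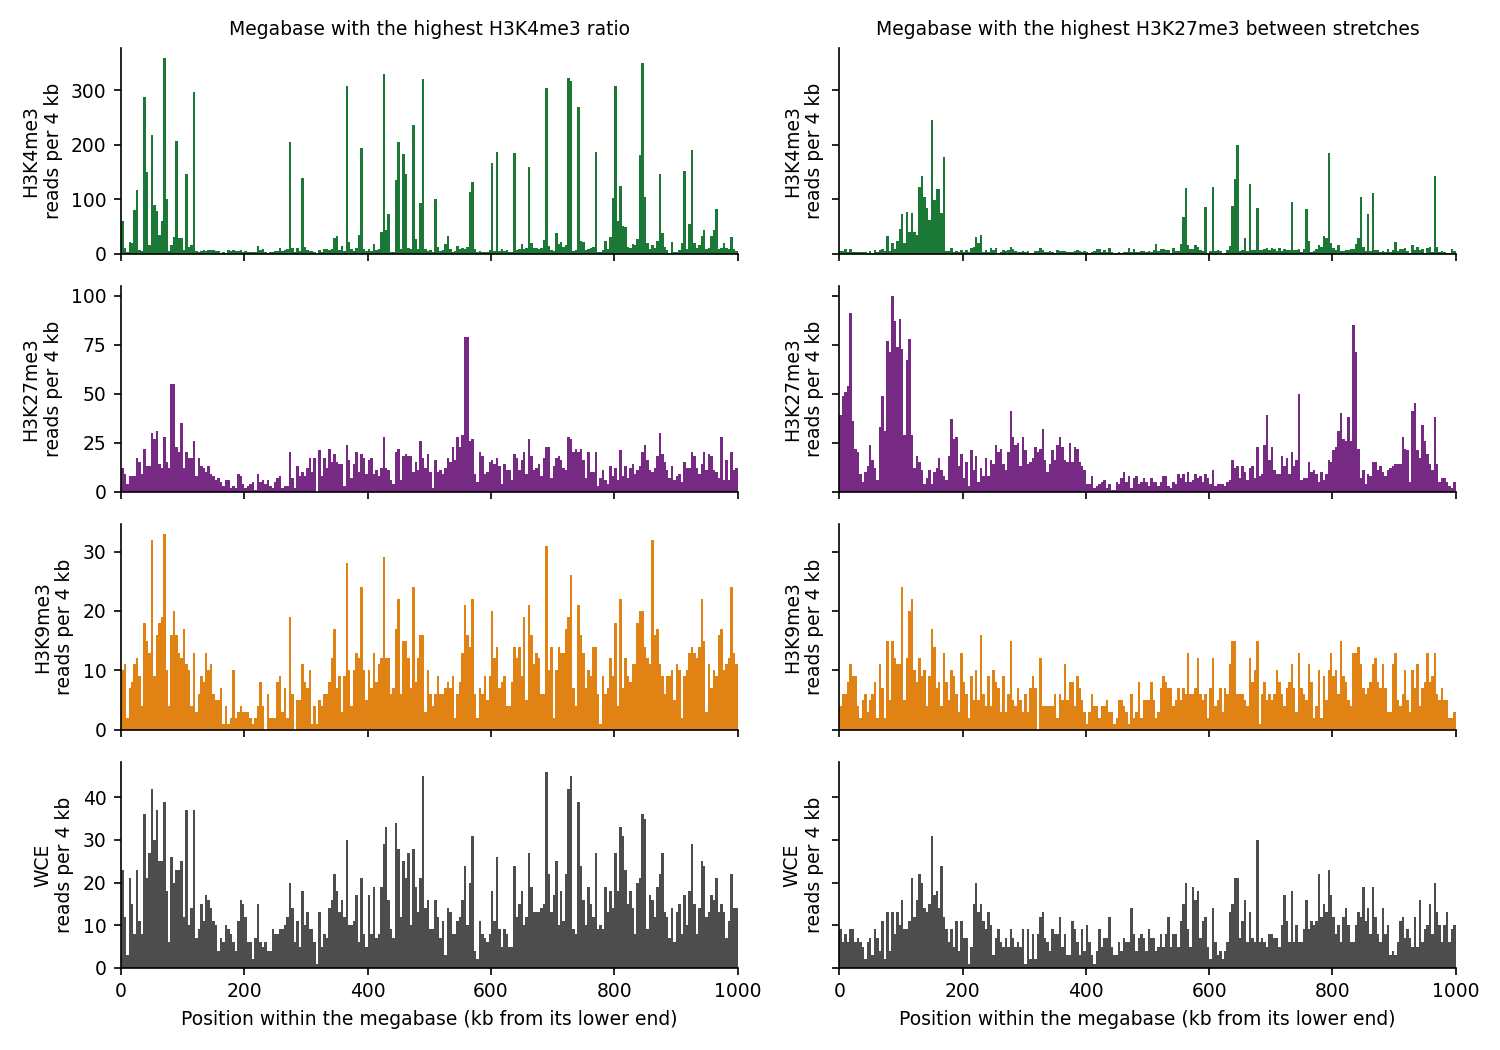
Reads per 4 kb window of the 4 libraries along the megabase with the highest H3K4me3 ratio (chromosome 19, left) and that with the highest H3K27me3 between stretches (chromosome 11, right), by distance from the lower end. Each row has 1 scale. H3K4me3 peaks of up to 360 reads recur along most of the left megabase, and H3K27me3 reaches 100 reads near the lower end of the right one.

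Within these megabases the libraries differ in shape, as the plot of reads per window along them shows. These windows were picked after their values were seen. In the chromosome 19 megabase, the window from 5068001 to 5072000 held 360 H3K4me3, 28 H3K27me3, 33 H3K9me3 and 39 WCE reads (H3K4me3 ratio 8.91, 6.39 to 12.7). The window from 5560001 to 5564000 held 13, 79, 16 and 10 (H3K27me3 ratio 8.02, 4.14 to 17.4). In the chromosome 11 megabase, the window from 96148001 to 96152000 held 246 H3K4me3, 4 H3K27me3, 17 H3K9me3 and 31 WCE reads, and the window from 96084001 to 96088000, 64 kb away, held 20, 100, 15 and 13. In the chromosome 19 megabase no window was called for both marks (54 for H3K4me3, 3 for H3K27me3), whereas in the chromosome 11 megabase 4 of 36 windows called for H3K27me3 were also called for H3K4me3. Among these, the window from 96096001 to 96100000 held 45 H3K4me3, 88 H3K27me3, 11 H3K9me3 and 10 WCE reads. WCE itself was denser in called H3K4me3 windows, with 16.2 reads per window over all members, against 7.21 in windows not called.

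H3K9me3 was close to the control in these megabases. The pooled ratio was 1.03 (1.02 to 1.03) in the members and 0.999 (0.997 to 1.001) in the others, and 1.06 (1.05 to 1.06) and 1.003 (1.001 to 1.005) outside called H3K4me3 windows. Per megabase the members ran from 0.794 to 1.44 with quartiles of 0.972 and 1.08, and the others from 0.517 to 2.25 with quartiles of 0.838 and 1.06, though fewer WCE reads give the others a wider counting error. In the others of similar WCE count the quartiles were 0.972 and 1.11 and the pooled ratio 1.06 (1.052 to 1.059), and in the tiles with an H3K4me3 ratio from 1.2 to under 1.5 they were 0.951 and 1.09 with a pooled ratio of 1.03 (1.028 to 1.038). The pooled H3K9me3 ratio in the members was thus no higher than in megabases like them. None of the 186 members reached 1.5 for H3K9me3, which allows a share of up to 1.61%, against 2.56% of all autosomal tiles. That limit is 3 of 186 tiles, and neighbouring tiles are not independent. Tiles with a ratio from 1.2 to under 1.5 were at 1.5 or above for H3K9me3 in 2 of 229 (0.873%) and the others of similar WCE count in 10 of 446 (2.24%). In called H3K4me3 windows the ratio was 0.906 (0.896 to 0.917) in the members, and at 80 to 196 kb it was 1.10 (1.08 to 1.13). Of 44194 member windows, 27 were called for H3K9me3 (0.0611%, 0.0403 to 0.0889%), and 166 members had none. The share was 0.0195% of all tested windows and 0.017% of those in the other megabases. It was 0.0274% (0.0154 to 0.0453%) in tiles with a ratio from 1.2 to under 1.5. In the others of similar WCE count it was 0.0328% (0.0230 to 0.0454%). The called share was thus higher in the members than in these sets, with intervals that overlap those of the last 2.

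The highest members for H3K9me3 were chromosome 4 from 125000001 (1450 H3K9me3 and 1430 WCE reads, 1.44, 1.33 to 1.55), chromosome 10 from 81000001 (615 and 646, 1.35), chromosome 4 from 124000001 (1509 and 1687, 1.27), chromosome 5 from 143000001 (1699 and 1909, 1.26) and chromosome 7 from 16000001 (583 and 690, 1.197). The pair on chromosome 4 adjoin each other. Lowest were chromosome 13 from 23000001 (542 and 967, 0.794, 0.714 to 0.883), chromosome 14 from 51000001 (387 and 675, 0.812) and chromosome 14 from 19000001 (1184 and 2050, 0.818). The lowest member, on chromosome 13, had 16 H3K4me3 stretches at a median of 16 kb.

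Once windows with an H3K4me3 ratio of 2 or more were removed, a part of the H3K4me3 signal remained, and it was higher in the members than elsewhere. The removal took 7031 of 46450 member windows, with 70.6% of their H3K4me3 reads and 22.25% of their WCE reads, where 8.52% of all tested windows reach this ratio. Of the removed windows, 2617 were not called. These held a mean of 4.59 WCE reads, and H3K27me3 (1.95) and H3K9me3 (1.70) were high over WCE there too. In the other megabases 34880 windows were removed, of which 26241 were not called and held a mean of 1.86 WCE reads. The same removal thus took more uncalled windows of low count there. The windows left had a pooled H3K4me3 ratio of 0.699 (0.695 to 0.703) in the members, against 0.551 (0.550 to 0.552) in the others. The scaling uses the whole H3K4me3 total, reads in high windows included. All 186 members stayed under 1, from 0.448 to 0.966 with a median of 0.683, and the others ran from 0.218 to 0.882 with a median of 0.525.

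Against H3K9me3 the remainder was 0.678 (0.674 to 0.682) in the members and 0.568 (0.566 to 0.569) in the others. The H3K4me3 reads also chose the members, so this too is a description. In the others of similar WCE count the remainder was 0.642 (0.640 to 0.644) over WCE and 0.618 over H3K9me3. Tiles with an H3K4me3 ratio from 1.2 to under 1.5 were at 0.666 (0.663 to 0.670) and 0.656. The difference was thus smaller against megabases like the members. Taking out the neighbours of high windows as well gave 0.663 (0.658 to 0.667) in the members and 0.539 (0.538 to 0.540) in the others. With the windows chosen on a random part of the H3K4me3 and WCE reads and measured on the rest, the values were 0.753 (0.747 to 0.759) in the members and 0.588 in the others. The members were still those chosen on all reads. The highest remainders were on chromosome 14 from 24000001 (1991 H3K4me3 and 1988 WCE reads left, 0.966, 0.908 to 1.03), chromosome 2 from 167000001 (2252 and 2459, 0.884) and from 30000001 (1920 and 2142, 0.865), and chromosome 10 from 80000001 (2066 and 2316, 0.861) and from 79000001 (1998 and 2262, 0.852). The lowest were on chromosome 14 from 51000001 (257 and 553, 0.448, 0.385 to 0.521), chromosome 7 from 11000001 (260 and 543, 0.462) and chromosome 8 from 4000001 (458 and 925, 0.478). The chromosome 14 megabase from 24000001 was just over the rule, with an H3K4me3 ratio of 1.51 and 15 called windows, yet its ratio outside high windows was higher than in any other member. Across members the H3K4me3 ratio and the remainder had a Pearson r of 0.19 and a Spearman rho of 0.20, over 186 tiles that share their libraries.

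**Figure D5:**
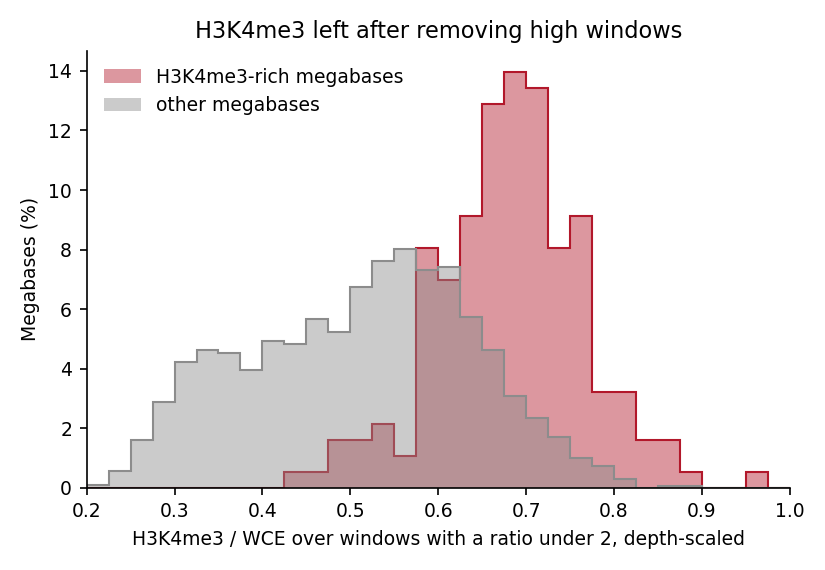
Share of megabases by the H3K4me3 ratio to WCE over windows with a ratio under 2, for the 186 H3K4me3-rich megabases (red) and the 2005 others (grey). The medians are 0.683 and 0.525, and the ranges overlap.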

How the data were processed

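The deposited values are read positions, signed by strand, and carry no counts. The authors aligned reads to mm8 with Bowtie (options e 70, k 2, m 2, n 2, l 36), per the file headers. Reads with 1 reported position were used, collapsed to 1 per signed position and moved 60 bp along their strand. Repeated positions made up 5.92 to 8.40% of these reads. Marks were scaled to WCE by autosomal totals. Windows of 4 kb were tested as described, over 580320 windows for H3K4me3, with Benjamini-Hochberg adjustment. Ratios carry exact intervals. Windows called compare libraries, not conditions. Windows with reads of neither the mark nor WCE were not tested (2384 of the members' windows for H3K4me3). A window with H3K4me3 reads and no WCE read counted as having a ratio of at least 2. Distances of stretches were taken within a megabase. The megabases named are those highest or lowest for each quantity. Members and lists were chosen with earlier results of these data known. Alternatives changed repeated reads, shift, scaling, tiling, thresholds, windows and the reads that chose members. No sequences are shown, since an mm8 genome was not used here. Python 3.11.15, numpy 2.4.6, scipy 1.17.1, pandas 2.3.3 and matplotlib 3.10.9 were used.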

Additional observations from a re-analysis of the deposited data

Results flagged for a closer look

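Reads with 2 reported positions, which enter none of the values above, also exceeded WCE in the H3K4me3-rich megabases. On the scaling of reads with 1 position, their ratio to WCE was 1.11 for H3K4me3 (1.09 to 1.13; 25753 and 22315 reads), 1.31 for H3K27me3 (1.29 to 1.33) and 1.21 for H3K9me3 (1.19 to 1.24), against 0.838, 1.03 and 1.19 in the other megabases. Each such read is listed at both of its positions, so its origin is not known.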

How the results depend on the processing

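Of 56 alternative values, 30 moved and 26 did not. A count was taken as moved beyond 1.5 times, and a ratio or distance outside its counting interval. With marks scaled by the median ratio over 100 kb bins, which shifted ratios by 0.81 (H3K4me3), 0.31 (H3K27me3) and 0.08 (H3K9me3) on the log2 scale, 1089 megabases qualified, with 16361 called H3K4me3 windows, 8491 called H3K27me3 windows, a spacing of 40 kb, H3K27me3 between stretches at 1.44, H3K9me3 at 1.09 and a remainder of 0.898. A threshold of 2 gave 52 megabases, 1776 and 385 called windows for H3K4me3 and H3K27me3, 24 kb, 1.32, 1.02 and 0.726. Windows of 2 kb gave a spacing of 26 kb, H3K27me3 between stretches at 1.26 and 566 called H3K27me3 windows, and an adjusted p under 0.01 gave 633 such windows. Counting all reads gave 1.26 for H3K27me3 between stretches, 1.01 for H3K9me3 and a remainder of 0.689. H3K27me3 between stretches was 1.29 with tiles from position 500000, 1.27 with members chosen on a random part of the reads, 1.33 away from neighbours of called windows, 1.25 in windows under a ratio of 2 and 1.18 without called H3K27me3 windows. H3K9me3 was 1.06 outside called H3K4me3 windows. The remainder was 0.663 without neighbours of high windows, 0.753 with removal chosen on other reads and 0.628 with removal from 1.5. The causes were not tested. H3K27me3 between stretches was higher in the members than in the others under 11 of 11 alternatives. The remainder was higher there under 9 of 9, and the spacing was shorter under 8 of 8. Counts of called windows did change order with the scaling by 100 kb bins. The members then held 16361 for H3K4me3 against 2346 in the others, where they had held 4414 against 8639. For H3K27me3 the counts were 8491 against 1026, where they had been 1082 against 2546. Of 191 megabases chosen on a part of the reads, 167 were at 1.5 or above in the rest. No paired analysis was possible because each group holds 1 library. Low WCE counts limit single windows, and nothing here measures variation between cultures.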
